A study of Mus musculus with 6 samples.

Results

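The integrated stress response and the unfolded protein response were followed through 37 genes chosen by name out of 24421 in a table of gene counts. They comprise 3 sensor kinases and transducers, 3 transcription factors, 14 genes of the ATF4 branch, 13 endoplasmic reticulum (ER) chaperones and disulfide isomerases, and 4 genes of ER-associated degradation. RNA was sequenced from sorted Lin-CD117+ bone marrow cells, the compartment of hematopoietic stem and progenitor cells, of female CByB6F1 mice (an F1 hybrid strain) aged 2 to 5 months. One group of 3 pools was untreated (pools 1, 2 and 3) and the other group of 3 pools was RUX-treated (pools 4, 5 and 6). RUX is ruxolitinib, a drug that blocks the kinases JAK1 and JAK2. The mice of both groups were normal, with no allele or transgene named in the labels, and each pool joined cells of 2 to 3 animals. The labels used here state no dose, route or duration of treatment. The study addressed the toxicity of ruxolitinib in normal mice and compared the transcriptomes of treated and untreated progenitors.

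Both responses slow protein synthesis and widen the capacity to fold and clear proteins. When misfolded proteins fill the ER, the chaperone BiP (Hspa5) leaves 3 membrane sensors. PERK (Eif2ak3) phosphorylates the initiation factor eIF2, which slows translation in general and lets ATF4 be translated; ATF4 then induces genes of amino acid uptake and synthesis and the stress factor CHOP (Ddit3). IRE1 (Ern1) splices the Xbp1 messenger, and ATF6 is cut in the Golgi; the products of both switch on chaperones and the degradation machinery. Other kinases sense amino acid shortage, heme shortage or double-stranded RNA and feed the same eIF2 step. In blood stem cells these pathways are known to weigh survival against elimination under protein stress. Gene counts do not separate spliced from unspliced Xbp1 and do not show phosphorylation or translation.

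Promoters of the members were read from RefSeq (GRCm38.p6, the same assembly as mm10), in a window from 250 bases before to 50 bases after the annotated start; 32 of the 37 members matched by symbol. A set of 3 motifs was searched on both strands. The ER stress element, through which ATF6 and XBP1 act together with the factor NF-Y, was spelled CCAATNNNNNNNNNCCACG. It lay in 8 of 32 members (25.0%), against 39 of 32851 promoters in the table (0.119%) and 0.131% of promoters of tested genes. Because the members were chosen as known genes of these responses, no conclusion is drawn from the contrast. All 8 were chaperone, isomerase or degradation genes, namely Hspa5, Calr, Canx, Creld2, Dnajc3, Hsp90b1, Pdia6 and Syvn1, and none was of the ATF4 branch. These windows are shown because they hold the element that several chaperone genes share, with the element in capitals; where the capitals begin with CGTGG the element is on the opposite strand.
Hspa5 (chr2:34772013-34772055, + strand): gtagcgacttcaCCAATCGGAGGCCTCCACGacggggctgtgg
Calr (chr8:84847063-84847105, − strand): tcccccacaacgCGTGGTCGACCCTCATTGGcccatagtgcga
Canx (chr11:50325788-50325830, − strand): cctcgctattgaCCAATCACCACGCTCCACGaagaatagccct
Creld2 (chr15:88819508-88819550, + strand): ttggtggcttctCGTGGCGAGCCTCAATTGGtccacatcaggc
Dnajc3 (chr14:118937815-118937857, + strand): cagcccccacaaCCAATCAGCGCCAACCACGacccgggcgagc
Hsp90b1 (chr10:86705626-86705668, − strand): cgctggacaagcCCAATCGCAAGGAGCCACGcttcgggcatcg
Hsp90b1 (chr10:86705521-86705563, − strand): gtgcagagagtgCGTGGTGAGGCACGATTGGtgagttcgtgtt
Pdia6 (chr12:17266479-17266521, + strand): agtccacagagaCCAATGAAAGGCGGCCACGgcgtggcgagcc
Syvn1 (chr19:6046520-6046562, + strand): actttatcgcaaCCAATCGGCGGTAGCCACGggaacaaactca
The element began 212 (Hsp90b1) to 44 (Syvn1) bases before the start, and Hsp90b1 held 2 copies.

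The core of the composite element bound by ATF4 with C/EBP factors was spelled TGATGNAA. It lay in 6 of 32 members (18.8%) against 3.97% of all promoters and 2.4% of promoters of tested genes. Asns, Chac1, Nupr1, Slc7a11 and Trib3 belong to the ATF4 branch, and Herpud1 is a degradation gene that ATF4 is also known to induce. In Trib3 the match lies after the start, so it is not shown. The UPR element TGACGTGG, whose last 5 letters also open the ER stress element read on its opposite strand, was found in 0 members and in 0.676% of all promoters. A match describes letters in this window only. The windows of the ATF4 core follow, again with the match in capitals.
Asns (chr6:7693213-7693244, − strand): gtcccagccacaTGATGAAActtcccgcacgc
Chac1 (chr2:119351037-119351068, + strand): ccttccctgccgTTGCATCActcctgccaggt
Nupr1 (chr7:126625561-126625592, − strand): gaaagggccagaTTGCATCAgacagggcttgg
Slc7a11 (chr3:50443660-50443691, − strand): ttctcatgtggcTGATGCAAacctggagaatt
Slc7a11 (chr3:50443641-50443672, − strand): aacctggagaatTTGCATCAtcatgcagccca
Herpud1 (chr8:94386305-94386336, + strand): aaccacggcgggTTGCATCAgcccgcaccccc
Slc7a11, which imports cystine, held the core once on each strand. Among the 5 tested members with the core, 4 fold changes (log2, RUX minus untreated) were positive and 1 negative, from −0.62 to 0.34.

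The libraries held 27354768 to 48747137 counted read pairs, and the untreated pools were shallower than 46027491, the lowest RUX total. Kit, the gene of CD117, stood at 191 to 476 CPM (counts scaled to library size) of the whole library and Cd34 at 352 to 542 CPM, whereas the T cell gene Cd3e was at most 0.543 CPM. On the first principal component of all tested genes (39.7% of the variance) untreated pool 3 and RUX pool 4 lay at 24.1 and 19.4 and the other pools at −16.5 to −3.04. Nothing in the labels names a batch. In such bulk samples fewer cells of a type and less RNA per cell cannot be told apart.

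No member differed between RUX and untreated pools by edgeR's quasi-likelihood test. Of the 37 members, 36 had enough counts to be tested among 13411 genes. Called members numbered 0 at a Benjamini-Hochberg adjusted p under 0.05 in edgeR, DESeq2 and limma-voom, beside 0% of all genes in edgeR. At an unadjusted p under 0.05 there were also 0 members, beside 1.89% of all genes; the smallest unadjusted p of a member was 0.167 (Creld2) and the smallest edgeR adjusted p was 0.9999. Log2 fold changes (RUX minus untreated) were positive for 22 and negative for 14 members, with a median of 0.038 beside −0.0036 over all genes. No member had all RUX pools above all untreated pools, beside 2.99% of all genes, and 1 member, Ern1, had all of them below, beside 3.25%.

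By this fit, which shares variance information across genes, the intervals were narrow enough to bound the difference for most members. The 95% interval of the fold lay within 1.5-fold in either direction for 29 of 36 members and within 2-fold for 33. Over all genes these shares were 56.8% and 80.9%, and many of those genes are less abundant. Among genes at 10 CPM or more the 1.5-fold bound held for 28 of 31 members (90.3%) and for 82.2% of 8778 genes. The 3 members outside the 2-fold bound were Slc7a11, Trib3 and Nupr1, each at a few CPM or less. The ratio of the highest to the lowest pool had a median of 1.34 for members at 10 CPM or more and 1.41 for all genes at that level.

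**Figure D1:**
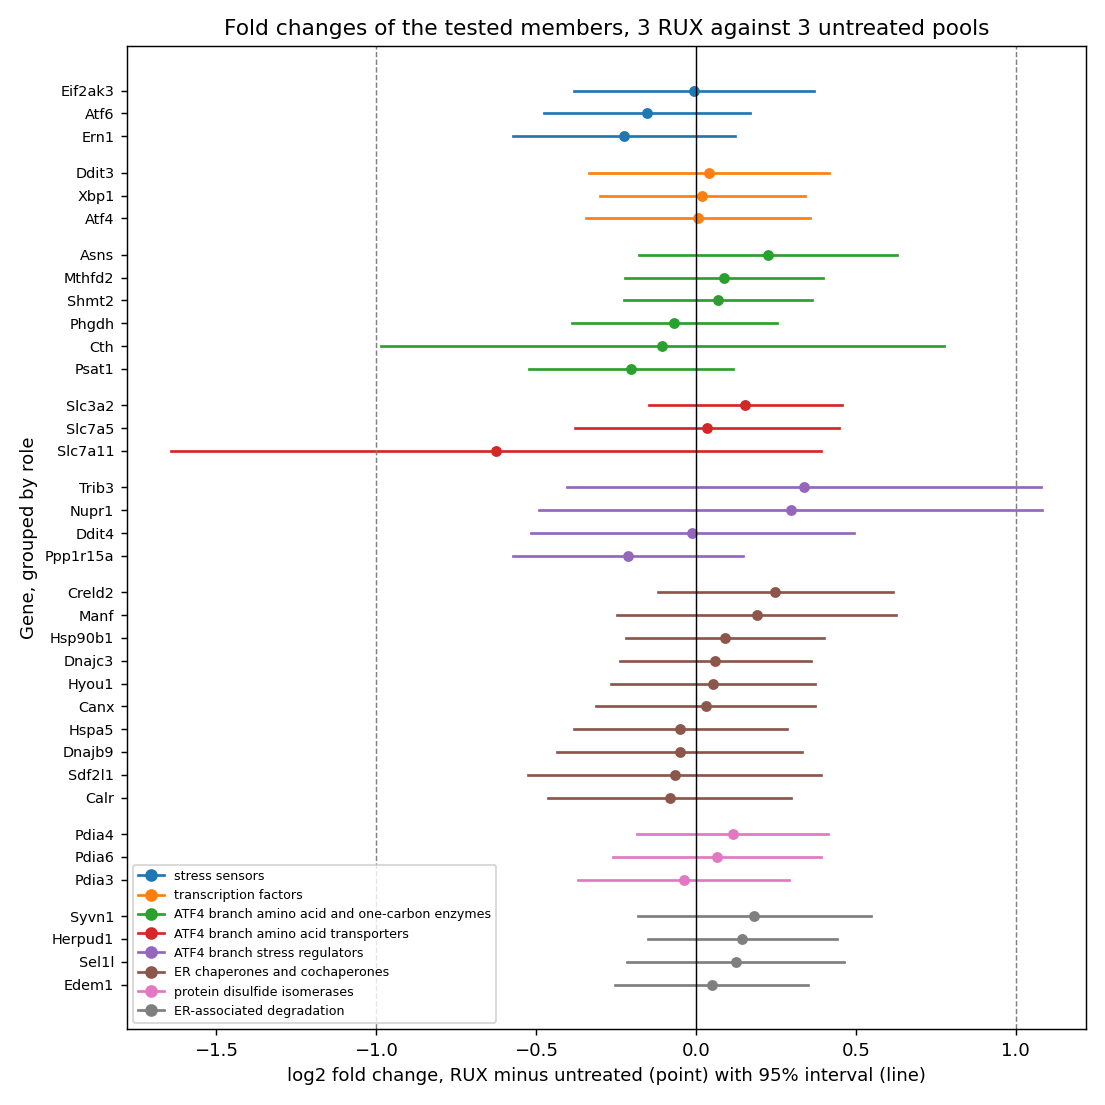
Log2 fold change of each tested member (RUX minus untreated, point) with its 95% interval (line), grouped and coloured by role, from 3 pools per group; dashed lines mark a 2-fold difference. Every interval crosses 0, and those of Slc7a11, Trib3 and Nupr1 are the ones that reach past 2-fold.

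Levels per length, in RPKM (CPM divided by the summed exon length in kilobases), placed ER chaperones at the top and sensors near the bottom. The ER calcium-binding chaperone gene Calr was the most abundant, at 587 to 959.5 RPKM over the 6 pools, above every other member in every pool. Pdia3, the thiol isomerase that works with calreticulin and calnexin, spanned 312 to 417 RPKM and Hspa5 319.6 to 431 RPKM, so this pair did not differ beyond its spread. Canx, the membrane-bound lectin chaperone, spanned 259.8 to 332 RPKM and overlapped both. The next were Hsp90b1 (GRP94, 225 to 282 RPKM) and Pdia6 (226 to 288 RPKM), again overlapping each other. Among genes of the ATF4 branch Phgdh, the first enzyme of serine synthesis, stood highest at 175 to 218 RPKM and Slc7a11 the lowest of those tested at 0.0556 to 0.186 RPKM.

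The upstream factors spread over more than an order of magnitude. The 3 sensor genes were the scarce end, at 2.76 to 3.42 RPKM for Eif2ak3, 3.59 to 4.82 RPKM for Ern1 and 3.97 to 5.33 RPKM for Atf6. Atf4 spanned 69.2 to 97.1 RPKM and Xbp1 52.4 to 67.1 RPKM, each above every sensor value. Ddit3, whose product promotes cell death under lasting stress, spanned 14.3 to 17.8 RPKM. Its level per length is uncertain, because 272 of its exon bases, of 871 in all, overlap exons of Mars on the other strand and the counting used no strand.

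**Figure D2:**
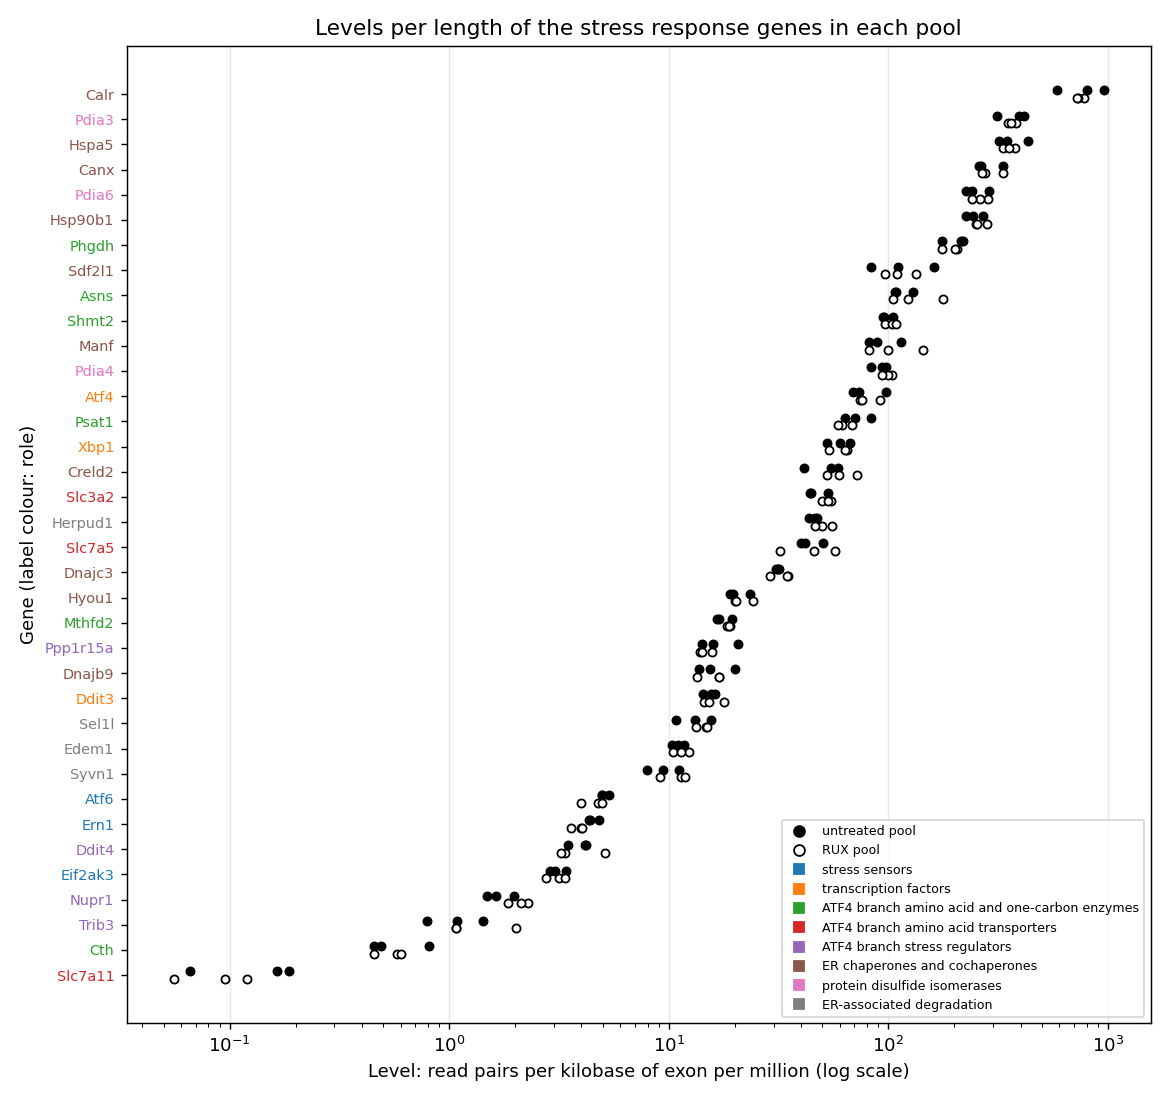
Level of each tested member per length (RPKM, log scale) in the 3 untreated (filled) and 3 RUX pools (open), with gene labels coloured by role. Calr leads in every pool, the sensors lie below 5.34 RPKM, and the filled and open points of a gene overlap for every member but Ern1.

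Among the sensors, all 3 fold changes were negative and Ern1 was the 1 member without overlap between groups. Ern1 (chromosome 11, 106397620 to 106487796, mm10), encoding the kinase and RNase IRE1, measured 17.3, 17.3 and 19.2 CPM in untreated pools 1, 2 and 3 and 15.8, 14.3 and 15.9 CPM in RUX pools 4, 5 and 6. The highest RUX pool therefore lay just under the lowest untreated pool. The log2 fold change was −0.22 ± 0.16 (SE) with an unadjusted p of 0.187, an edgeR adjusted p of 0.9999 and a fold interval of 0.67 to 1.09. Atf6 measured 39.8, 36.9 and 36.9 CPM in the untreated and 29.7, 35.4 and 36.9 CPM in the RUX pools, with RUX pool 4 the lowest and the other RUX pools close to the untreated ones. Its log2 fold change was −0.15 ± 0.15 (SE) and its fold interval 0.72 to 1.12. Eif2ak3 measured 15.4, 12.9 and 13.7 CPM in the untreated and 12.4, 14.1 and 15.2 CPM in the RUX pools, which overlapped fully, with a log2 fold change of −0.0066 ± 0.17 (SE). That sign was not stable, since it turned in 8 of the 14 alternative settings, both other scalings included; without RUX pool 4 the value was 0.077.

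The transcription factor genes were level between the groups. Atf4 (chromosome 15, 80255184 to 80257545) measured 119.6, 128 and 168 CPM in untreated pools 1, 2 and 3 and 158, 128 and 131 CPM in RUX pools 4, 5 and 6. Untreated pool 3 and RUX pool 4 were its highest pools, 1 in each group, and the other 4 lay close together. The log2 fold change was 0.0070 ± 0.16 (SE), with a fold interval of 0.79 to 1.28. Xbp1 measured 136, 118 and 151 CPM in the untreated and 146, 143 and 121 CPM in the RUX pools, again with the group ranges overlapping, and had a log2 fold change of 0.020 ± 0.15 (SE) (fold interval 0.81 to 1.27). Ddit3 measured 13.6, 12.4 and 14.2 CPM in the untreated and 15.5, 12.5 and 13.3 CPM in the RUX pools. Its log2 fold change was 0.041 ± 0.17 (SE), and RUX pool 4 was its highest pool. The sign of each of these 3 values turned in 3 of the 14 settings, all of which leave out pools; over all settings Atf4 ran from −0.088 to 0.17, and without RUX pool 4 it was −0.087.

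In the ATF4 branch, 7 of 13 tested targets had positive and 6 negative fold changes, with a median of 0.034; 0 passed the test in either direction. Asns, asparagine synthetase, a classical ATF4 target that carries the core shown above, measured 207, 249.8 and 209 CPM in untreated pools 1, 2 and 3 and 202, 237 and 340.4 CPM in RUX pools 4, 5 and 6. RUX pool 6 stood above all others and the remaining 5 pools overlapped. The log2 fold change was 0.23 ± 0.19 (SE) (unadjusted p = 0.248, edgeR adjusted p = 0.9999), and without RUX pool 6 it was −0.019. Psat1, the aminotransferase of serine synthesis, measured 207, 158 and 176 CPM in the untreated and 170.0, 153 and 147 CPM in the RUX pools. Untreated pool 1 was the highest and the log2 fold change was −0.20 ± 0.15 (SE). Phgdh had −0.067 ± 0.15 (SE), and the mitochondrial folate enzymes Shmt2 and Mthfd2 had 0.069 ± 0.14 (SE) and 0.087 ± 0.14 (SE). Cth, which makes cysteine from cystathionine, was near 1 CPM (1.05 ± 0.353 and 0.984 ± 0.144 CPM in untreated and RUX pools, mean ± SD, n = 3).

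The amino acid transporters split by abundance. Slc3a2, the heavy chain shared by several amino acid exchangers, measured 132, 157 and 130.5 CPM in the untreated and 148, 162 and 156 CPM in the RUX pools. Untreated pool 2 reached the RUX range, and the log2 fold change was 0.16 ± 0.14 (SE) with a fold interval of 0.90 to 1.37. Its light chain partner Slc7a5 ranged from 113 CPM in RUX pool 4 to 201 CPM in RUX pool 6, the ends of its range being both in the RUX group, with a log2 fold change of 0.034 ± 0.19 (SE). Slc7a11, the cystine light chain, measured 0.607, 1.72 and 1.51 CPM in the untreated and 0.88, 0.513 and 1.11 CPM in the RUX pools. The groups overlapped, with untreated pool 1 among the low pools. The log2 fold change of Slc7a11 was −0.62 ± 0.47 (SE), with a fold interval of 0.32 to 1.31. On the log2 scale this interval was the widest of the tested members.

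Stress regulators induced by ATF4 and CHOP were mostly scarce. Trib3, a pseudokinase, measured 2.21, 2.92 and 1.62 CPM in the untreated and 2.20, 4.14 and 2.20 CPM in the RUX pools. RUX pool 5 stood alone and the other 5 pools overlapped; the log2 fold change was 0.34 ± 0.34 (SE), and without RUX pool 5 it was −0.033. Ppp1r15a (GADD34), which brings a phosphatase to eIF2 and ends the response, measured 32.9, 37.3 and 48.3 CPM in the untreated and 32.4, 36.6 and 33.2 CPM in the RUX pools. Here untreated pool 3 stood alone; the log2 fold change was −0.21 ± 0.17 (SE), and −0.043 without that pool. Ddit4, an mTORC1 inhibitor, had −0.012 and the small chromatin-associated factor gene Nupr1 0.30, with 1.06 ± 0.157 and 1.31 ± 0.14 CPM. Chac1, a glutathione-degrading enzyme and a sensitive marker of ATF4 activity, had too few counts to be tested. It held 0, 0 and 7 counts in the untreated and 5, 12 and 1 in the RUX pools. A count of 0 allows up to 0.110 and 0.0775 CPM in untreated pools 1 and 2 (3 counts of the total, counting error only).

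The chaperones and cochaperones centred on 0, with 6 positive and 4 negative of 10 and a median of 0.042; none passed the test. Hspa5 (chromosome 2, 34772090 to 34776529), the master chaperone that is commonly read as a gauge of ER stress, measured 1129, 836 and 909.7 CPM in untreated pools 1, 2 and 3 and 866, 984 and 929 CPM in RUX pools 4, 5 and 6. The RUX pools lay inside the untreated range, whose upper end was untreated pool 1. The log2 fold change was −0.048 ± 0.16 (SE) and the fold interval 0.77 to 1.22. Calr measured 1567, 1141 and 1864 CPM in the untreated and 1505, 1413 and 1402 CPM in the RUX pools, with both extremes in the untreated group and a log2 fold change of −0.082 ± 0.18 (SE). Creld2, a secreted ER isomerase whose promoter holds the ER stress element, measured 56.4, 74.8 and 80.2 CPM in the untreated and 97.9, 81.7 and 71.8 CPM in the RUX pools. Its log2 fold change of 0.25 ± 0.17 (SE) had the smallest unadjusted p of the 36 members (edgeR adjusted p = 0.9999), and RUX pool 6 lay below untreated pools 2 and 3.

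The other chaperone genes had intervals that cross 1, the widest of them reaching 0.84 to 1.54 for Manf and 0.70 to 1.31 for Sdf2l1. Hsp90b1 had a log2 fold change of 0.092 ± 0.14 (SE), Dnajc3 (the p58IPK cochaperone, which restrains PERK) 0.061 ± 0.14 (SE) and Hyou1, a large HSP70 relative that exchanges the nucleotide of BiP, 0.054 ± 0.15 (SE). Canx had 0.030, Dnajb9 (ERdj4, an XBP1 target) −0.051 and Sdf2l1, which partners with ER J-proteins, −0.066. Manf, a secreted ER stress protein, had 0.19 ± 0.20 (SE), and its highest pool was RUX pool 4 at 316 CPM; without that pool the value was −0.060. Among the 8 members with the ER stress element, 6 fold changes were positive and 2 negative, with a median of 0.063 and a range of −0.082 to 0.25.

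Disulfide isomerases and degradation genes were likewise without a call. Pdia4 measured 242, 232 and 207 CPM in the untreated and 257, 247 and 233 CPM in the RUX pools and had a log2 fold change of 0.11 ± 0.14 (SE). Pdia3 measured 1045, 824 and 1101 CPM in the untreated and 1011, 928 and 953 CPM in the RUX pools and had −0.038 ± 0.15 (SE), with the RUX pools inside the untreated range. Pdia6 had 0.065 ± 0.15 (SE). In ER-associated degradation, all 4 genes had positive fold changes, with a median of 0.13, and all 4 overlapped between groups. Syvn1, the ubiquitin ligase HRD1, measured 34.3, 40.6 and 29.0 CPM in the untreated and 33.4, 41.4 and 43.1 CPM in the RUX pools. Untreated pool 3 was its lowest pool and the log2 fold change was 0.18 ± 0.17 (SE). Its partner Sel1l had 0.12 ± 0.16 (SE) and was also lowest in untreated pool 3, at 67.8 CPM; without that pool the value was −0.0011. Herpud1, an ER membrane scaffold, had 0.15 ± 0.14 (SE) and Edem1, a mannosidase-like lectin, 0.050 ± 0.14 (SE), the latter −0.015 without RUX pool 5. Exons on the other strand overlap Syvn1 (178 bases, Mrpl49), Pdia6 (100 bases, Atp6v1c2), Shmt2 (68 bases, Ndufa4l2) and Ppp1r15a (22 bases, Tulp2), and how read pairs there were assigned was not tested.

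Set side by side, the branch medians were 0.034 for the 13 tested ATF4 targets and 0.061 for the 17 chaperone, isomerase and degradation genes, beside −0.0036 for all tested genes. The first median was −0.0095 without untreated pool 3, −0.0005 without RUX pool 6 and 0.11 without RUX pool 4. Without both untreated pool 3 and RUX pool 4 the medians were 0.15 and 0.059, in the opposite order. The difference between branches was not tested. Summed over the 36 tested members, expression was 8900, 8241 and 9395 CPM in untreated and 9042, 8760 and 8925 CPM in RUX pools, so the RUX values lay inside the untreated range.

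Pools of 1 group differed from each other, and members of a role did not all follow the same order of pools. In untreated pool 3 Calr and Sdf2l1 were at their highest and Canx and Hyou1 at their lowest, and Ppp1r15a was at its highest and Trib3 at its lowest. The mean deviation of log2(CPM + 1) from each gene's own mean was 0.17 in untreated pool 3 and 0.16 in RUX pool 4 for the 3 transcription factors, and −0.14 to −0.042 in the other pools. For chaperones it was 0.083 and 0.13 in those pools and −0.11 in untreated pool 2. For disulfide isomerases it was 0.054 and 0.11 in those pools and −0.15 in untreated pool 2. The degradation genes showed another order, with −0.19 in untreated pool 3 and 0.16 in RUX pool 5. A group of 7 members, Atf4, Ddit3, Xbp1, Hsp90b1, Pdia6, Sdf2l1 and Manf, had untreated pool 3 and RUX pool 4 as their highest pools, 19.4% of those tested against 15.3% of all genes, a share near the background.

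Mean deviations of several marker lists were also highest in untreated pool 3 and RUX pool 4. Lists of basophil and mast cell (0.31 and 0.50), T and NK (0.18 and 0.12) and macrophage genes (0.37 and 0.11) were among them. Genes within these lists did not all share that order. Mcpt8 and Nkg7 were highest in those 2 pools. In contrast, Gata2 was lowest in untreated pool 3 (93.9 CPM), and Tcf7 was highest in untreated pool 1 (16.4 CPM). Of the 6 macrophage genes only 3 were tested, and Mrc1 was highest in untreated pool 2 (1.15 CPM). The 5 neutrophil primary granule genes (Mpo, Elane, Prtn3, Ctsg and Ms4a3), which mark promyelocyte-stage progenitors, summed to 7485, 4799 and 13980 CPM in untreated and 11110, 10150 and 8325 CPM in RUX pools. Their mean deviation was 0.80 and 0.60 in untreated pool 3 and RUX pool 4 and −1.05 in untreated pool 2. Mpo differed in that RUX pool 5 (7182 CPM) lay above RUX pool 4 (6973 CPM). The 5 eosinophil genes summed to 49.6 to 247 CPM in untreated and 59.2 to 239 CPM in RUX pools. The same 2 pools were on top. Prg2 made up most of these sums, at 35.7 to 214 CPM in untreated and 41.3 to 207 CPM in RUX pools. Prg2, Epx, Ear6 and Prg3 were each highest in those 2 pools, but Siglecf was highest in RUX pool 4 and untreated pool 1. The 10 late neutrophil genes, markers of mature neutrophils, summed to 169, 2300 and 2517 CPM in untreated and 1569, 947 and 371 CPM in RUX pools, another order of pools. All 10 had negative fold changes (median −0.87 on the log2 scale), but all 10 overlapped between groups, and the lowest sum was that of untreated pool 1. In the reported fit 0 passed edgeR's test, and with no low-count filter all 10 did. Their fold changes moved little between these fits (S100a8 −0.70 and −0.69), and the cause of the change in calls was not tested. Kit was lowest in untreated pool 3 (191 CPM) and RUX pool 4 (277 CPM of the whole library), and at 419 to 476 CPM in the others. Plasma cells are rich in XBP1, and their 8 marker genes summed to 168 to 227 CPM in untreated pools. In RUX pools the sum was 190 to 275 CPM. Jchain alone made up most of it, at 96.6 to 147 CPM in untreated and 132 to 191 CPM in RUX pools. Of the 8 genes, 5 had positive and 3 negative fold changes. Prdm1, the plasma cell master regulator, was at most 0.566 CPM of the whole library. None of the 5 granule, 5 eosinophil or 8 plasma cell genes was at 0 in all pools. The part of these cell types in the members' values was not tested. Without untreated pool 3 and RUX pool 4, 0 members were called and the median over all members was 0.059.

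**Figure D3:**
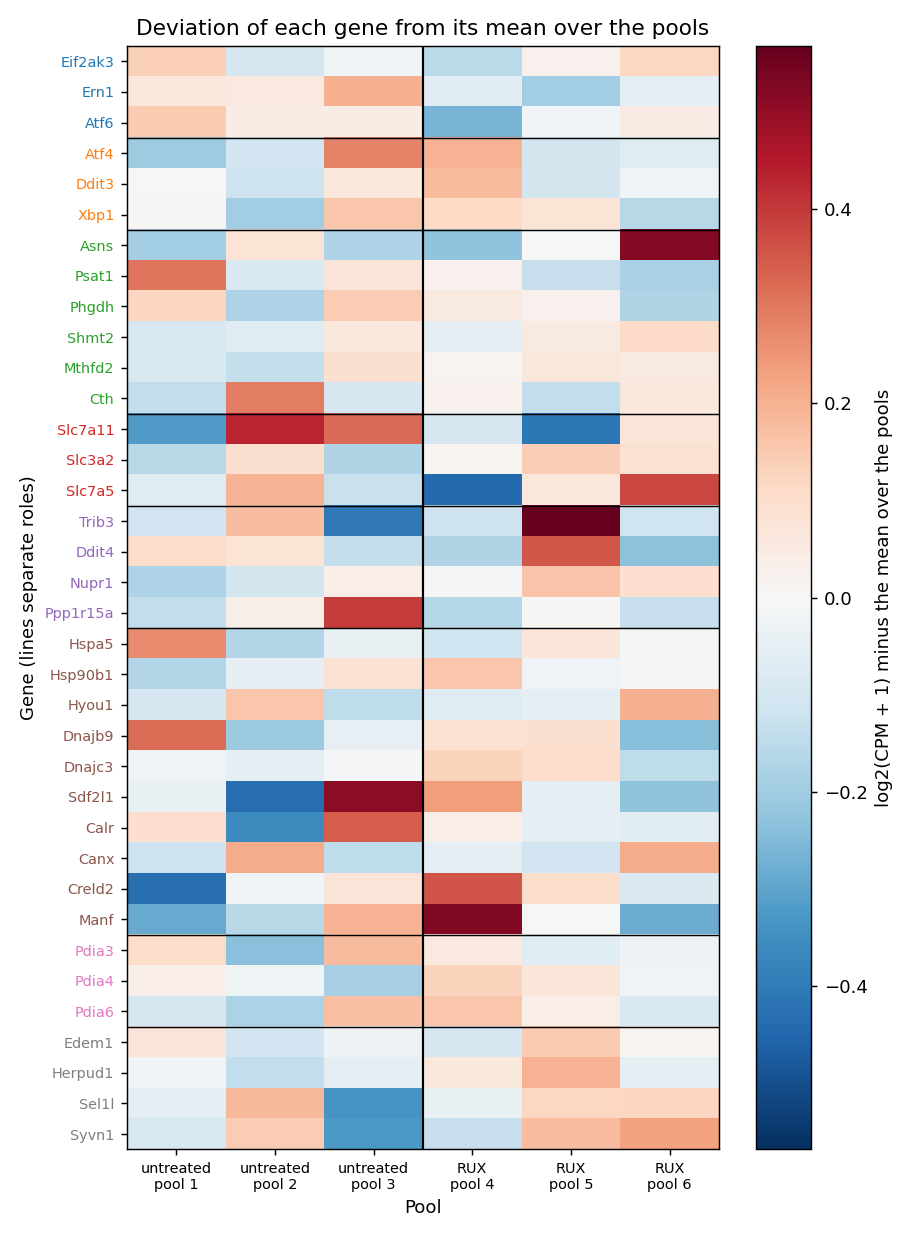
Deviation of log2(CPM + 1) of each tested member (rows, grouped by role) from its mean over the 6 pools (columns; the vertical line separates 3 untreated from 3 RUX pools). Colours change from pool to pool within a group, and no role has 1 colour in all untreated pools and the opposite in all RUX pools.

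**Figure D4:**
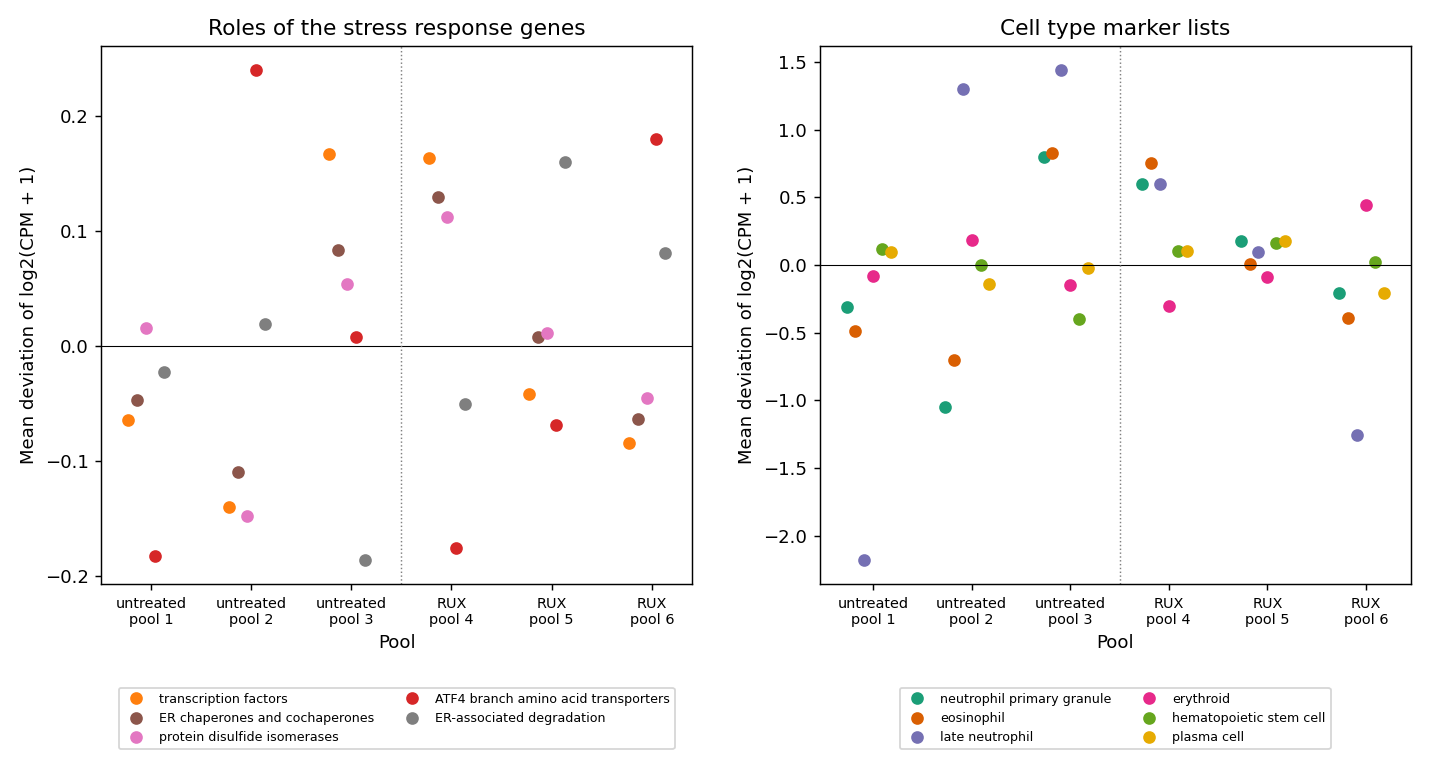
Mean deviation of log2(CPM + 1) in each pool for 5 roles of the members (left) and 6 lists of cell type markers (right), 1 point per list and pool, with different vertical scales. Transcription factors, chaperones and disulfide isomerases are highest in untreated pool 3 and RUX pool 4, as are eosinophil genes and neutrophil primary granule genes. So are the basophil and mast cell, T and NK, macrophage, and other ER folding and translocation lists, which are not drawn.

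Genes of the same pathways outside the 37 were read from 7 lists. In each list 0 genes passed edgeR's test in either direction, and 0 had an unadjusted p under 0.05. The other eIF2 kinases, eIF2 and eIF2B subunits (12 tested) had a median log2 fold change of 0.016. Eif2ak1, the heme-sensing kinase of red cell precursors, had 0.060 ± 0.16 (SE), the double-stranded RNA sensor Eif2ak2 0.11 ± 0.15 (SE) and the amino acid sensor Eif2ak4 −0.0029 ± 0.15 (SE). In that list Eif2s1, the phosphorylated subunit of eIF2, had the smallest unadjusted p on the lower side (−0.28) and Ppp1r15b on the higher side (0.15). Of 20 further ATF4 partners and targets 18 were tested, 13 positive and 5 negative, with a median of 0.084. Cebpg, a dimer partner of ATF4, measured 78.8, 74.2 and 64.3 CPM in the untreated and 88.6, 86.6 and 80.4 CPM in the RUX pools without overlap. Its log2 difference was 0.23 ± 0.14 (SE), at an adjusted p of 0.9999 in edgeR; on the lower side stood Shmt1 (−0.24).

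Further ER genes gave the same picture. Of 27 folding and translocation genes 12 were positive and 15 negative (median −0.026). Dnajc10, an ER disulfide reductase, measured 209, 187 and 169 CPM in the untreated and 145, 152 and 163 CPM in the RUX pools without overlap. The difference was −0.29 ± 0.14 (SE) on the log2 scale (unadjusted p = 0.0571, adjusted p = 0.9999 in edgeR), whereas Uggt1, the folding sensor of glycoproteins, had 0.25. Other UPR regulators (8 tested, median 0.047) included Rtcb, the ligase that completes Xbp1 splicing, at 253 ± 11.3 and 271 ± 4.64 CPM (mean ± SD, n = 3) without overlap, a log2 difference of 0.10 ± 0.13 (SE), and Creb3l2 at −0.11. The 16 other degradation genes had a median of 0.046, with Os9 at 0.15 and Ube2j1 at −0.11. The 20 cytosolic aminoacyl-tRNA synthetases, many of which ATF4 induces, had 16 positive and 4 negative values with a median of 0.047, where 49.2% of all tested genes were positive; Qars had 0.17 and Dars −0.18. That median was −0.064 without RUX pool 6 and 0.14 without RUX pool 4. Single pools also turned the sign of other list medians. The eIF2 list had −0.017 without untreated pool 2 and −0.069 without RUX pool 6, and the UPR regulators had −0.0090 without RUX pool 6. The folding and translocation list had 0.0021, 0.052, 0.015 and 0.0011 without untreated pool 1, untreated pool 3, RUX pool 5 and RUX pool 6.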

How the data were processed

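The deposited values are raw counts per gene. Per the file headers, featureCounts 2.0.3 counted read pairs on exons of the UCSC mm10 annotation, with no option for strand, multiple mapping or overlapping genes. STAR is named in the submitters' processing notes, with no version in the sources used here. Libraries were SMART-Seq, per the labels' protocols. The deposited exon length per gene served for RPKM. Each pool is 1 replicate, and p-values reflect variation among 3 pools per group, with variance information shared across genes by the fit. Standard errors and intervals therefore need not follow the spread of a gene's own pools.

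EdgeR 4.0.16 (R 4.3.3) filtered genes with filterByExpr, scaled by TMM and applied the two-sided quasi-likelihood test with treatment as the only term, Benjamini-Hochberg adjusted over 13411 genes at a threshold of 0.05. CPM uses TMM-scaled library sizes over tested genes, unless the whole library is named. Intervals are 95%. The fits were tested on simulated data: false calls stayed under the threshold for edgeR and limma-voom but exceeded it for DESeq2, whose limit in that test was loosened after this was seen. Lists received counts and medians only.

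The members and lists were chosen with earlier results of these data known. Values in every pool are given for sensors, transcription factors, Hspa5, members without overlap at 1 CPM or more or with a p under 0.05, and the smallest p on each side of each role; of other lists, the smallest p on each side is named. Eif2ak1, Eif2ak2, Eif2ak4 and single marker genes were picked after their values were seen. Alternatives were DESeq2 size factors, upper-quartile scaling, limma-voom 3.58.1, DESeq2 1.42.0, a robust quasi-likelihood fit, no low-count filter, a minimum of 1 CPM in 3 pools, each pool left out, and untreated pool 3 and RUX pool 4 left out together. A planned comparison of protein tails was not run.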

Additional observations from a re-analysis of the deposited data

How the results depend on the processing

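No member was called in any of the 14 alternative settings, and 0 members reached an unadjusted p under 0.05 in any of them. Of 503 pairs of a member and a setting, 48 had the opposite sign, and 17 members kept 1 sign throughout. Over all genes 14 were called with no low-count filter, 10 of them the late neutrophil genes (all lower in RUX) and 0 of them members. The reported edgeR fit called 0 genes, and 254 genes had an unadjusted p under 0.05 in it. In the other alternatives 0 genes were called. Medians that moved by more than the spread between pools were as follows. With no low-count filter the ATF4 stress regulators, then with Chac1, had 0.30, and with at least 1 CPM in 3 pools the ATF4 enzymes, then without Cth, had 0.071. Without untreated pool 3 and RUX pool 4 the ATF4 targets had 0.15, the ATF4 enzymes 0.057 and the other eIF2 kinases, eIF2 and eIF2B 0.090. Over the settings that each leave out 1 pool, medians ran −0.0095 to 0.11 for ATF4 branch targets, −0.22 to −0.058 for stress sensors, −0.0095 to 0.055 for ATF4 branch amino acid and one-carbon enzymes, −0.17 to 0.20 for ATF4 branch amino acid transporters, −0.14 to 0.23 for ATF4 branch stress regulators, −0.069 to 0.049 for other eIF2 kinases, eIF2 and eIF2B and 0.043 to 0.16 for other ATF4 partners and targets. The cause of these movements with pools was not tested. No paired analysis was possible because the pool numbers 1 to 6 are not shared between the groups. Motif counts in the upstream part of the window alone were 8 for the ER stress element, 5 for the ATF4 core and 0 for the UPR element. Depth limits Chac1, which was not tested, and Cth, Slc7a11, Nupr1 and Trib3, whose fold intervals are wide.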

Other observations

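Cytosolic heat shock chaperones, which answer protein stress outside the ER under HSF1, were also without a call (15 tested, 9 positive and 6 negative, median 0.046). Hspa1a, the inducible HSP70 gene, measured 20.1, 58.0 and 79.6 CPM in untreated pools 1, 2 and 3 and 68.6, 98.3 and 76.2 CPM in RUX pools 4, 5 and 6, with untreated pool 1 far below the others. The difference was 0.62 ± 0.34 (SE) on the log2 scale, with an adjusted p of 0.9999 in edgeR. The mean deviation of the list was −0.28 in untreated pool 1 and 0.046 to 0.083 in the others. Hspa1a, Hspa1b, Hspb1, Hsp90aa1, Hsp90ab1, Dnaja1 and Hsph1 were lowest in untreated pool 1, but Hspa8, Stip1 and Chordc1 were highest there. The list's median was −0.0029 without RUX pool 4. Chordc1, an HSP90 cochaperone, had a log2 fold change of −0.20. Hspa1a has a near-identical copy, Hspa1b, so its count is uncertain.

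RUX pool 6, the highest pool for Asns and Slc7a5, was also the highest for the aminoacyl-tRNA synthetases (0.21, others −0.15 to 0.017) and for the 10 erythroid markers (0.44, others −0.31 to 0.18). The promoters that hold the ER stress element belong to 37 genes in all, of which 8 are members, 2 (Derl3 and Ero1b) stand in the lists of other pathway genes and 27 in neither.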
